A study of Rattus norvegicus with 8 samples.

Results

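The motile cilia and intraflagellar transport genes of the rat lung were 53 genes, out of 11217 genes that a probe set with a single symbol represented on an Affymetrix rat expression array. They were chosen by symbol: Foxj1, Rfx2, Rfx3, Dynlrb2, Tubb4b, and every gene whose symbol is Dnah, Dnai, Dnal, Ift, Bbs, Tekt, Spag, Rsph or Spata followed by a number (for Dnal also Dnali). A gene with several probe sets was read by the one whose mean over the arrays was highest. Of the 53, 49 passed the filter on low values (log2 5 or above on at least 2 arrays) and were tested, while Bbs12, Rsph3, Spata1 and Tekt5 did not pass and are given as values.

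RNA came from the dorsal-caudal quadrant of lungs from male rats of the Sprague-Dawley stock, weighing 340 to 400 g, whose age the labels do not give. The control group was 2 non-ventilated rats. The prone group and the supine group were 3 rats each, ventilated in that position with large breaths of 18 mL per kg (high tidal volume) at 40 breaths per minute and 0 cmH2O of positive end-expiratory pressure for up to 3 hours. The protocol describes anaesthesia, a tracheotomy and a jugular cannula for the rats and does not say separately whether non-ventilated rats had them; no group with a low tidal volume was analysed here. Titles call the samples biological replicates, and 8 arrays limit the precision of every value.

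Motile cilia are beating projections of airway epithelial cells that move mucus out of the lung. Their core, the axoneme, is a ring of microtubule doublets bent by outer and inner dynein arms and regulated by radial spokes and a central apparatus. Intraflagellar transport (IFT) carries building blocks along it, with IFT-B linked to outward and IFT-A to return movement, and the BBSome carries membrane proteins. Primary, non-motile cilia also use IFT and the BBSome, so those genes are active in many cell types, whereas dynein arms and spokes belong to motile cilia. Foxj1 is the forkhead transcription factor that switches on the motile cilia programme, and Rfx2 and Rfx3 bind the X-box in promoters of ciliary genes.

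By role, the members were 3 transcription factors, 2 outer arm dyneins (Dnai1, Dnal1), 4 inner arm dyneins (Dnah1, Dnah2, Dnah7, Dnali1), 2 other dynein chains (Dnai7, Dynlrb2), 4 radial spoke genes (Rsph1, Rsph3, Rsph9, Rsph10b), 5 tektins and Tubb4b, 3 IFT-A and 14 IFT-B genes, 7 BBSome genes or chaperonins, 2 sperm-associated antigens (Spag7, Spag9) and 6 spermatogenesis-associated genes (Spata1, Spata6, Spata7, Spata13, Spata24, Spata33). The last 2 groups entered by symbol, and some of their genes have roles outside cilia: Spag9 encodes a scaffold of JNK signalling and Spata13 an exchange factor for small GTPases. Tubb4b is a beta-tubulin used in axonemes and in other microtubules. 15 tested genes of the dynein arms, other dynein chains, radial spokes and tektins are called axonemal below, a set formed after their values were seen. Tubb4b was left out of that set.

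RefSeq promoters of the GRCr8 assembly, from 250 bases before to 50 after the start of the gene, were found for 46 of the 53 members. The RFX X-box was searched on both strands as the exact pattern GTNRCC, 0 to 3 bases, then RGYAAC (N any base, R a purine, Y a pyrimidine). No mismatch was allowed, so near matches were not counted. This pattern lay in 3 of 46 (6.52%), against 536 of 33469 rat promoters (1.6%). All 3 belonged to the axonemal roles, where 3 of the 15 promoters found for tested and untested genes held it (20.0%), with 0 of 13 among IFT and 0 of 7 among BBSome genes. The forkhead core TGTTTAC or TGTTTGC, on either strand and overlapping no X-box in these genes, lay in 6 of 46 (13.0%) against 2820 of all promoters (8.43%), and its holders were Dnali1, Tekt1, Tekt3, Tekt4, Ift20 and Ift81. Members were read by a single promoter per gene. The shares of all promoters took every promoter listed, without that step and without a limit to genes on the array. A match describes letters only. The 250 bases before the start of the 3 X-box genes are shown because the motif falls in different places in them and because these genes differ in the values below. Capitals mark the X-box, which reads on the strand opposite to the gene and begins 45 bases before the start in Dnah2, 99 in Dnai1 and 36 in Tekt2.
Dnah2, chr10:54766027-54766276, minus strand: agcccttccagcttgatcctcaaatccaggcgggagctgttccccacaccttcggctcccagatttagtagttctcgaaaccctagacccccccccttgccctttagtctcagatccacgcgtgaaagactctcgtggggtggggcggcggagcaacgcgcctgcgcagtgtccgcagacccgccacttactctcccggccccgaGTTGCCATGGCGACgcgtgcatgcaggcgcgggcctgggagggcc
Dnai1, chr5:61525829-61526078, plus strand: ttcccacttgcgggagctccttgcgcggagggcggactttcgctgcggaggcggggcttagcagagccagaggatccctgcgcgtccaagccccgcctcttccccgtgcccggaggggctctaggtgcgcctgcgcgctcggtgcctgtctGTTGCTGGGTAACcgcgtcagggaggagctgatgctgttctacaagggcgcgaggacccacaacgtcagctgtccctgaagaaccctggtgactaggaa
Tekt2, chr5:143907725-143907974, minus strand: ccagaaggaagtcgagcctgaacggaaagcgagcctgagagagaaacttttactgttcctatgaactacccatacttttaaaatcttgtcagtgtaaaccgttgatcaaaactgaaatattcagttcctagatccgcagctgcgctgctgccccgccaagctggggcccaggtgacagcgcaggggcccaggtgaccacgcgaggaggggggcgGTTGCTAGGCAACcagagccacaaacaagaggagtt

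Array medians over all probe sets lay between 7.77 and 7.95 (log2). RNA quality set supine replicate 3 apart. On it, signal from 3′ exceeded that from 5′ probe sets by 9.10 log2 units for beta-actin and 8.41 for GAPDH, against 3.16 to 4.64 and 0.70 to 1.92 on the other arrays. Prone replicate 2 stood apart in airway transcripts and, together with supine replicate 3, in heart transcripts, given with the array pattern. The labels name no batch. Of 5 ciliated cell markers on the array, Foxj1, Dnai1 and Tekt1 are members themselves. The other 2 are Tppp3, at 9.69 to 13.29, and Ccdc40, which at 3.36 to 5.39 did not pass the filter, so the label has little independent check here. Values are log2 and can be compared between arrays for 1 probe set but not between genes, and in whole tissue fewer cells of a type and less RNA per cell cannot be told apart.

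Among the transcription factors, Foxj1 had the largest positive difference of the 49 tested members in prone lungs. It measured 8.44 and 8.36 in control, 9.31, 11.24 and 10.97 in prone, and 9.37, 9.70 and 8.42 in supine lungs (replicates 1 to 3 in order). All 3 prone arrays lay above both controls, while supine replicate 3 lay between the controls. The prone mean was 2.11 ± 0.63 log2 units above control (SE of the limma model here and below; 10.51 ± 1.04 in 3 prone against 8.40 ± 0.05 in 2 control lungs, SD), with an adjusted p of 0.167 and so no call. Supine stood 0.76 ± 0.63 above control, and supine minus prone was -1.34 ± 0.57 (limma, adjusted p = 0.942). Rfx3 measured 7.21 and 7.22 in control, 5.92, 7.10 and 7.29 in prone, and 5.95, 7.54 and 6.39 in supine lungs, so both groups spanned the control level. Rfx2 measured 5.73 and 5.48 in control, 5.23, 5.58 and 5.08 in prone, and 4.95, 5.97 and 6.18 in supine lungs, with all 3 groups overlapping.

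**Figure D1:**
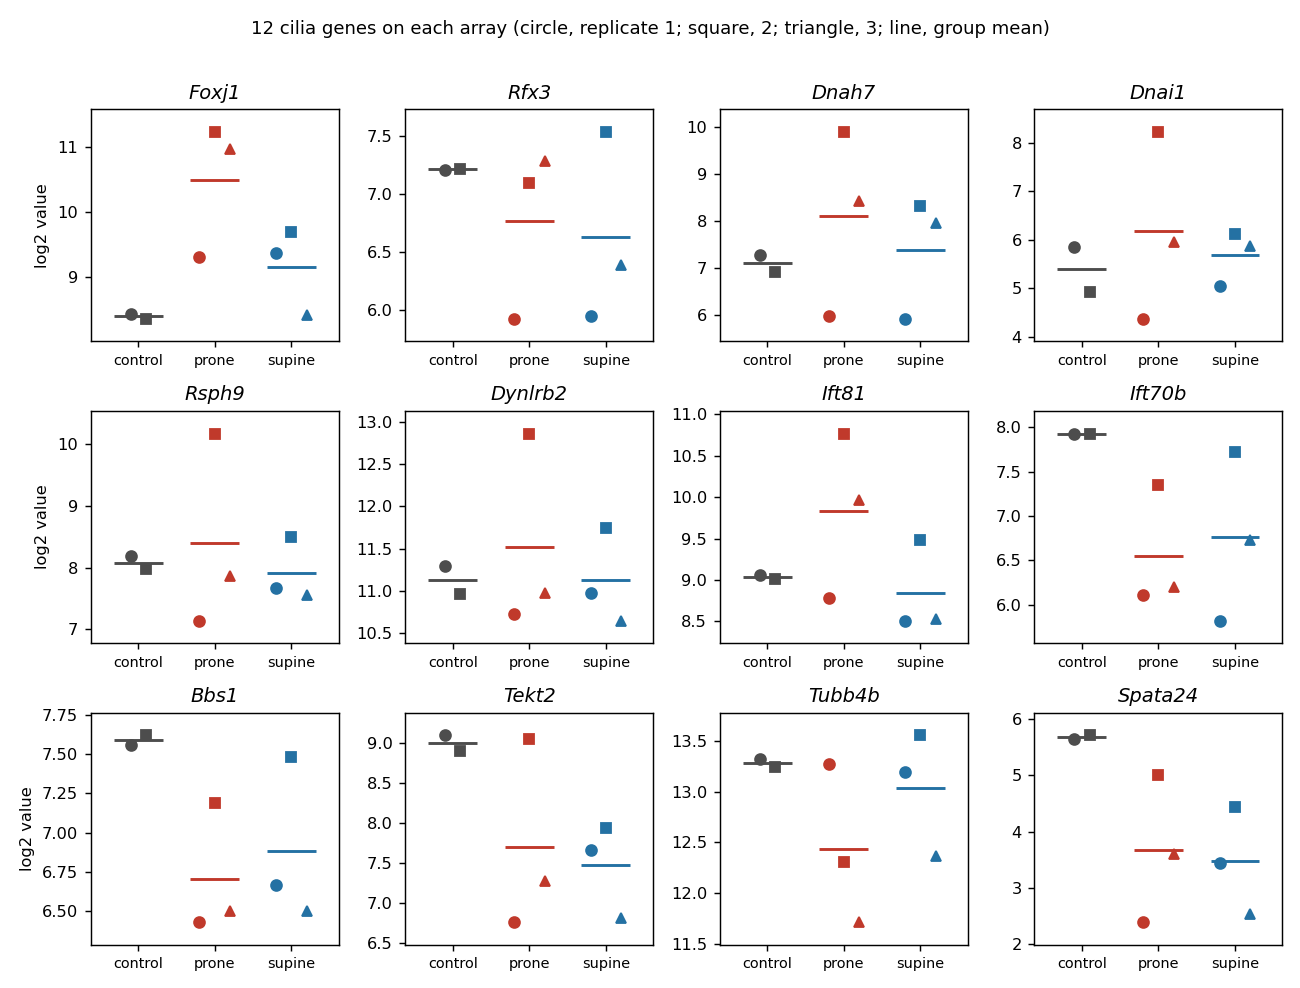
Log2 values of 12 members, chosen after their values were seen, on each of the 8 arrays. Each point is 1 array, coloured by group with its shape giving the replicate number, and lines are group means. Prone replicate 2 (square) is the highest array for Foxj1 (11.24), Dnah7 (9.90), Dnai1 (8.23), Rsph9 (10.17), Dynlrb2 (12.86) and Ift81 (10.77), and all ventilated arrays lie below both controls for Ift70b, Bbs1 and Spata24.

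The inner arm dyneins varied more between prone lungs than between groups. Dnah7, a heavy chain, measured 7.27 and 6.91 in control, 5.97, 9.90 and 8.43 in prone, and 5.91, 8.31 and 7.95 in supine lungs. Replicate 1 of each position lay below both controls and replicates 2 and 3 above them, and the prone difference of 1.01 ± 1.15 was smaller than its error. Dnah1, another heavy chain, measured 7.22 and 7.09 in control, 6.65, 9.81 and 7.91 in prone, and 7.31, 8.14 and 8.83 in supine lungs. It was above both controls on all 3 supine arrays, by a mean of 0.94 ± 0.87, and in prone lungs by 0.97 ± 0.87 with overlap. Dnah2, whose promoter holds an X-box, measured 5.69 and 5.50 in control, 4.76, 7.99 and 5.61 in prone, and 5.52, 6.47 and 7.23 in supine lungs. Its prone arrays reached from below to well above control. Dnali1, a light intermediate chain with the forkhead core, measured 7.83 and 7.55 in control, 7.87, 9.75 and 8.31 in prone, and 7.97, 8.68 and 7.22 in supine lungs. Every prone array was above both controls, the first by little, and the difference was 0.95 ± 0.63.

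The outer arm and other dynein chains gave the same order within the prone group. Dnai1, an intermediate chain with an X-box promoter, measured 5.86 and 4.92 in control, 4.37, 8.23 and 5.96 in prone, and 5.06, 6.13 and 5.88 in supine lungs. Its controls were themselves unequal, and prone replicate 1 lay below and replicates 2 and 3 above both. Dnal1, an outer arm light chain, measured 7.20 and 7.21 in control, 6.35, 8.12 and 7.25 in prone, and 4.09, 6.90 and 6.24 in supine lungs. All supine arrays lay below control (-1.46 ± 0.84), and without supine replicate 1 the difference was -0.63. A second Dnal1 probe set, too low to be tested, ran the other way, at 3.93 and 3.42 in control and 4.12 to 6.29 on ventilated arrays. Dynlrb2, a roadblock-type dynein light chain, measured 11.30 and 10.97 in control, 10.73, 12.86 and 10.98 in prone, and 10.98, 11.75 and 10.65 in supine lungs, so its differences were 0.39 ± 0.66 and -0.01 ± 0.66. Dnai7 measured 7.62 and 7.26 in control, 7.07, 9.37 and 8.77 in prone, and 7.24, 8.15 and 9.40 in supine lungs. It and Tekt2 were the 2 axonemal members not highest on prone replicate 2.

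Radial spoke genes, whose products link the doublets to the central apparatus, gave a like spread. Rsph9 measured 8.18 and 7.98 in control, 7.14, 10.17 and 7.86 in prone, and 7.67, 8.50 and 7.55 in supine lungs, and Rsph10b ran from 5.66 in prone replicate 1 to 9.46 in prone replicate 2. Rsph1 measured 8.36 and 8.01 in control, 8.34, 10.24 and 8.28 in prone, and 8.72, 9.23 and 7.96 in supine lungs, with differences of 0.77 ± 0.66 and 0.45 ± 0.66. In each of the 3 genes prone replicate 2 stood far above control, with replicate 1 below or between the controls. Rsph3, not tested, was 4.16 on prone replicate 2 and 2.60 to 2.87 on the other arrays.

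Tektins, filament proteins inside the doublets, and Tubb4b differed from the dyneins in some arrays. Tekt2, an X-box gene, measured 9.10 and 8.90 in control, 6.76, 9.05 and 7.28 in prone, and 7.66, 7.94 and 6.82 in supine lungs. All supine arrays lay below both controls (-1.52 ± 0.68, limma adjusted p = 0.342), and in prone lungs (-1.30 ± 0.68) replicate 2 lay at the control level. Tekt1 measured 9.08 and 8.67 in control, 7.74, 10.26 and 8.84 in prone, and 7.72, 9.17 and 7.23 in supine lungs, a spread that covers control. Tekt3 and Tekt4 were lowest on prone replicate 3, at 4.73 and 5.91. Tubb4b measured 13.32 and 13.25 in control, 13.28, 12.31 and 11.71 in prone, and 13.20, 13.56 and 12.37 in supine lungs, and here prone replicate 2 was not high. Tekt5 measured 4.10 and 4.30 in control, 2.36, 2.41 and 2.38 in prone, and 2.40, 2.15 and 2.38 in supine lungs. Every ventilated array was lower than both controls, at the low end of the scale, where a value cannot be separated from background.

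Among the IFT genes, the 3 IFT-A genes (Ift43, Ift122, Ift140) stood within 0.15 log2 units of control in both positions. Of 14 IFT-B genes, 8 stood higher and 6 lower in prone, and 5 higher and 9 lower in supine lungs. Ift57, a peripheral subunit, measured 8.91 and 9.29 in control, 9.53, 10.15 and 9.52 in prone, and 9.73, 9.64 and 9.18 in supine lungs. Its prone arrays all lay above control (0.63 ± 0.34), as did those of the small GTPase Ift22 (0.39 ± 0.33). Ift81, a tubulin-binding subunit, measured 9.06 and 9.01 in control, 8.78, 10.77 and 9.97 in prone, and 8.51, 9.49 and 8.53 in supine lungs, with overlap in both.

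The lower IFT-B genes included both Ift70 copies, near-identical paralogs whose probe sets may share signal. Ift70b measured 7.93 and 7.92 in control, 6.11, 7.35 and 6.20 in prone, and 5.82, 7.72 and 6.73 in supine lungs. All 6 ventilated arrays lay below both controls, most at supine replicate 1 and least at supine replicate 2, and the differences were -1.37 ± 0.60 and -1.16 ± 0.60. Ift70a1 stood at -1.32 ± 0.65 in prone lungs, again without overlap, but overlapped control in supine lungs. Ift46, a core subunit, stood at -0.95 ± 0.56 in supine lungs, or -0.37 without replicate 3, the array with the wide 3′ to 5′ gap, where it measured 6.66. Ift20, which also works at the Golgi, measured 10.84 and 10.88 in control, 10.73, 10.48 and 10.38 in prone, and 10.56, 10.51 and 10.05 in supine lungs. It and Ift25, partner of the GTPase Ift27, lay below both controls on all 6 ventilated arrays, for Ift25 on prone replicate 2 by less than the last printed digit.

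The 6 tested BBSome genes all had negative prone differences (-0.93 to -0.10), and 5 of 6 negative supine differences (median -0.64). Bbs4 measured 8.05 and 7.97 in control, 7.26, 7.29 and 6.69 in prone, and 7.84, 7.72 and 7.35 in supine lungs. Prone minus control was -0.93 ± 0.32 (limma, unadjusted p = 0.0199, adjusted p = 0.201), and Bbs4 was the single member whose supine arrays all lay above the prone ones (0.56 ± 0.28, adjusted p = 0.942). Bbs1 measured 7.56 and 7.62 in control, 6.43, 7.19 and 6.50 in prone, and 6.67, 7.48 and 6.50 in supine lungs. Its groups did not overlap with control in either position (-0.88 ± 0.40 and -0.71 ± 0.40). Bbs9 stood at -0.77 ± 0.51 in supine lungs, without overlap, and Bbs7 within 0.10 of control in both. A second tested Bbs7 probe set stood higher, at 0.45 ± 0.27 in prone lungs without overlap and 0.22 ± 0.27 in supine lungs with overlap. Bbs12, not tested, ranged from 3.64 to 4.60.

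Of the genes named for the testis, Spata24 was lower on every ventilated array than in both controls, down to the low end of the scale. It measured 5.65 and 5.71 in control, 2.39, 5.0 and 3.61 in prone, and 3.45, 4.43 and 2.54 in supine lungs. It passed the filter through its control values and 1 prone value. The fitted differences were -2.01 ± 0.80 in prone (limma, adjusted p = 0.252) and -2.20 ± 0.80 in supine lungs (adjusted p = 0.289), but values this low cannot be separated from background, so their size has no rank among the members. Spata7, a protein of the photoreceptor connecting cilium, measured 7.73 and 7.63 in control, 7.73, 9.04 and 9.33 in prone, and 8.16, 8.35 and 8.53 in supine lungs. Supine arrays were all above control (0.66 ± 0.48), and prone replicate 1 was level with it (1.02 ± 0.48 in mean). Spata13 stood within 0.04 of control in both positions, and Spag7 was lower without overlap in prone lungs (-0.45 ± 0.43).

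Spag9 depended on the probe set. The chosen one measured 11.56 and 11.78 in control, 11.25, 11.48 and 11.73 in prone, and 11.05, 12.07 and 12.07 in supine lungs, with differences of -0.18 ± 0.39 and 0.06 ± 0.39. Another measured 7.62 and 7.15 in control, 9.83, 9.53 and 11.57 in prone, and 8.84, 9.20 and 11.83 in supine lungs. In that one all ventilated arrays exceeded both controls, by 2.92 ± 0.97 in prone (adjusted p = 0.195) and 2.57 ± 0.97 in supine lungs (adjusted p = 0.296); it was singled out after its values were seen. Of 7 members with several tested probe sets, these differed in sign for 3 in prone minus control, 1 in supine minus control and 2 in supine minus prone.

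**Figure D2:**
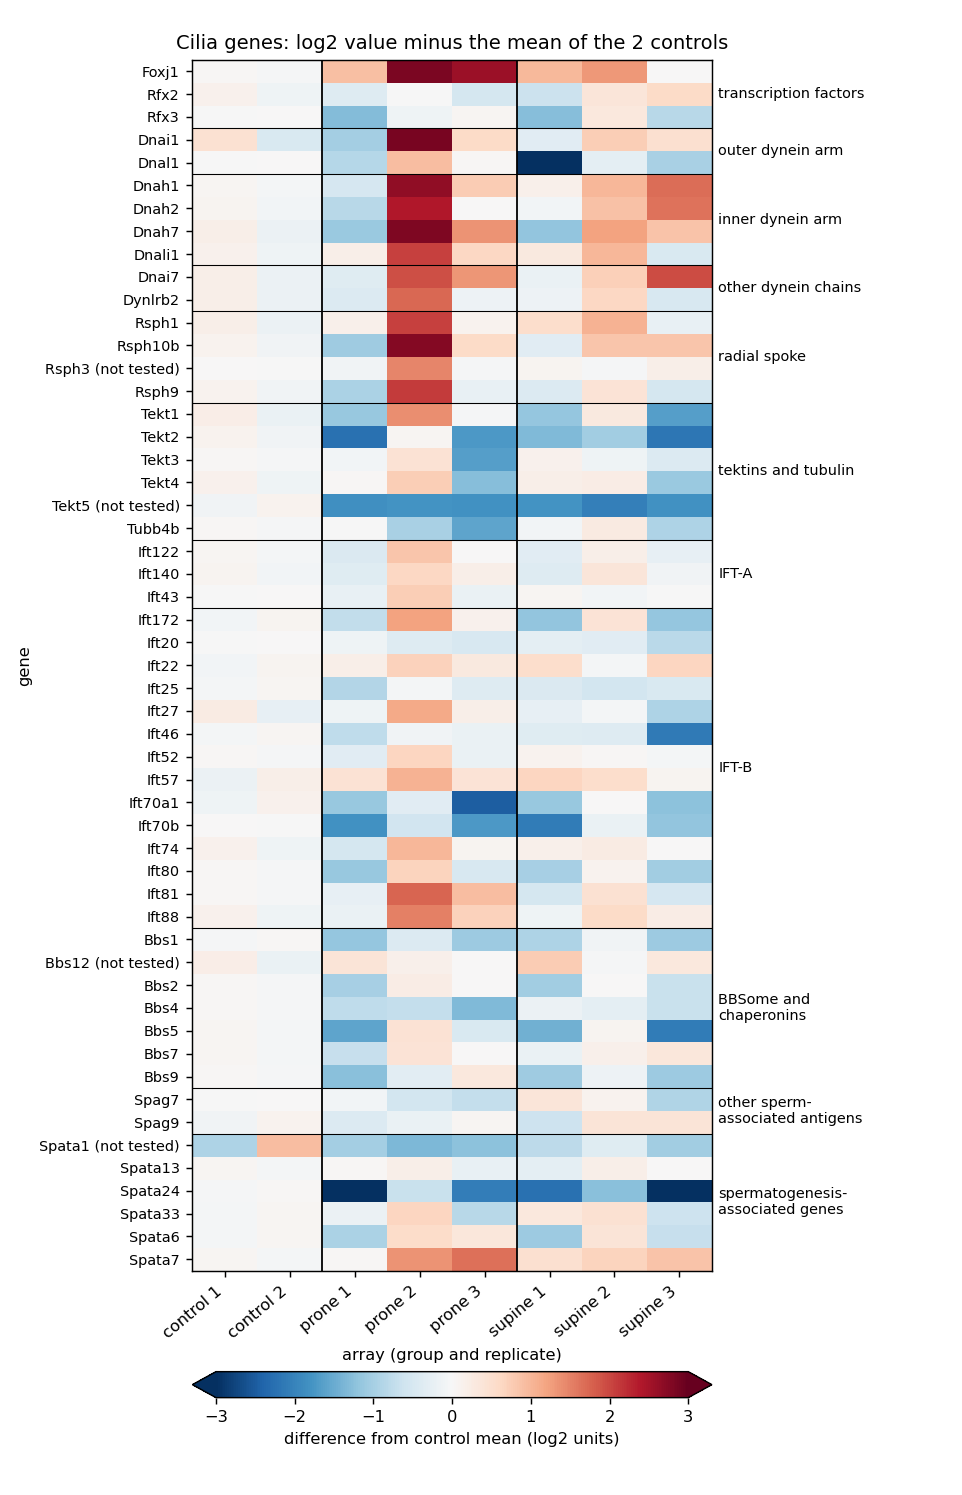
Difference of each of the 53 members (rows, by role) from the mean of the 2 control arrays on each array (columns), in log2 units, with colours ending at 3 units in both directions. Prone replicate 2 is red for most dynein, spoke and IFT genes, replicate 1 of both positions is blue for most members, and Tekt5 and Spata24 are blue on every ventilated array.

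In prone against non-ventilated lungs 0 of 49 members passed an adjusted p of 0.05 in limma, against 0.0391% of the 10240 genes tested; the smallest was that of Foxj1. At an unadjusted p under 0.05, 1 member was higher (Foxj1) and 2 lower (Spata24, Bbs4), where 6.36% of all genes were higher and 10.7% lower. The groups did not overlap for 4 higher members (Foxj1, Dnali1, Ift57, Ift22) and 9 lower ones, where the shares of all genes were 18.6% and 29.0%. Each of these counts is a smaller share of the 49 members than the share found over all genes. In sign, 26 stood higher and 23 lower, with a median of 0.04 log2 units (-2.01 to 2.11) against -0.15 for all genes. 42 lay within 1 log2 unit of control.

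Supine against non-ventilated lungs also gave 0 of 49 calls (0.0391% of all genes), the smallest adjusted p being 0.289 for Spata24. At an unadjusted p under 0.05 there were 0 higher and 1 lower (Spata24), against 6.48% and 7.86% of all genes. Spata24 passed the filter only through its control values and 1 prone value. Its p-values and its place at the low end of the ranges, in each comparison with control, are therefore not read as a result. Groups did not overlap for 2 higher members (Dnah1, Spata7) and 10 lower ones, against 19.4% and 22.9% of all genes, and again no count is a larger share than that over all genes. 19 members stood higher and 30 lower, with a median of -0.14 (-2.20 to 0.94) against -0.07 for all genes. Both comparisons use the same 2 controls, so their values are not independent.

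Position itself separated the members little. In supine minus prone 0 of 49 passed (0.0% of all genes), and at an unadjusted p under 0.05 there were 0 higher and 1 lower (Foxj1), against 2.33% and 1.11% of all genes. Groups did not overlap for 1 higher member (Bbs4) and 0 lower, against 3.58% and 1.94%. These counts of 0 and 1 are too few to set apart from the shares over all genes. 12 members stood higher and 37 lower in supine lungs, with a median of -0.19 (-1.50 to 0.61) against 0.07 for all genes. Without prone replicate 2 that median was 0.20, with 33 higher and 16 lower, so the direction rests on that array. Replicate 2 was also the highest supine array for most members, and without replicate 2 of both positions, an alternative added after seeing the data, the median was 0.03 with 25 higher and 24 lower.

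With the 6 ventilated arrays as 1 group against control, 0 of 49 members passed (0.117% of all genes; smallest adjusted p 0.187, Spata24). At an unadjusted p under 0.05, 1 was higher and 3 lower, against 7.52% and 11.0% of all genes. Groups did not overlap for 0 higher and 7 lower members, against 11.9% and 17.8%, each a smaller share than that over all genes. The standard error of a member's prone difference had a median of 0.57 against 0.43 for all genes.

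**Figure D3:**
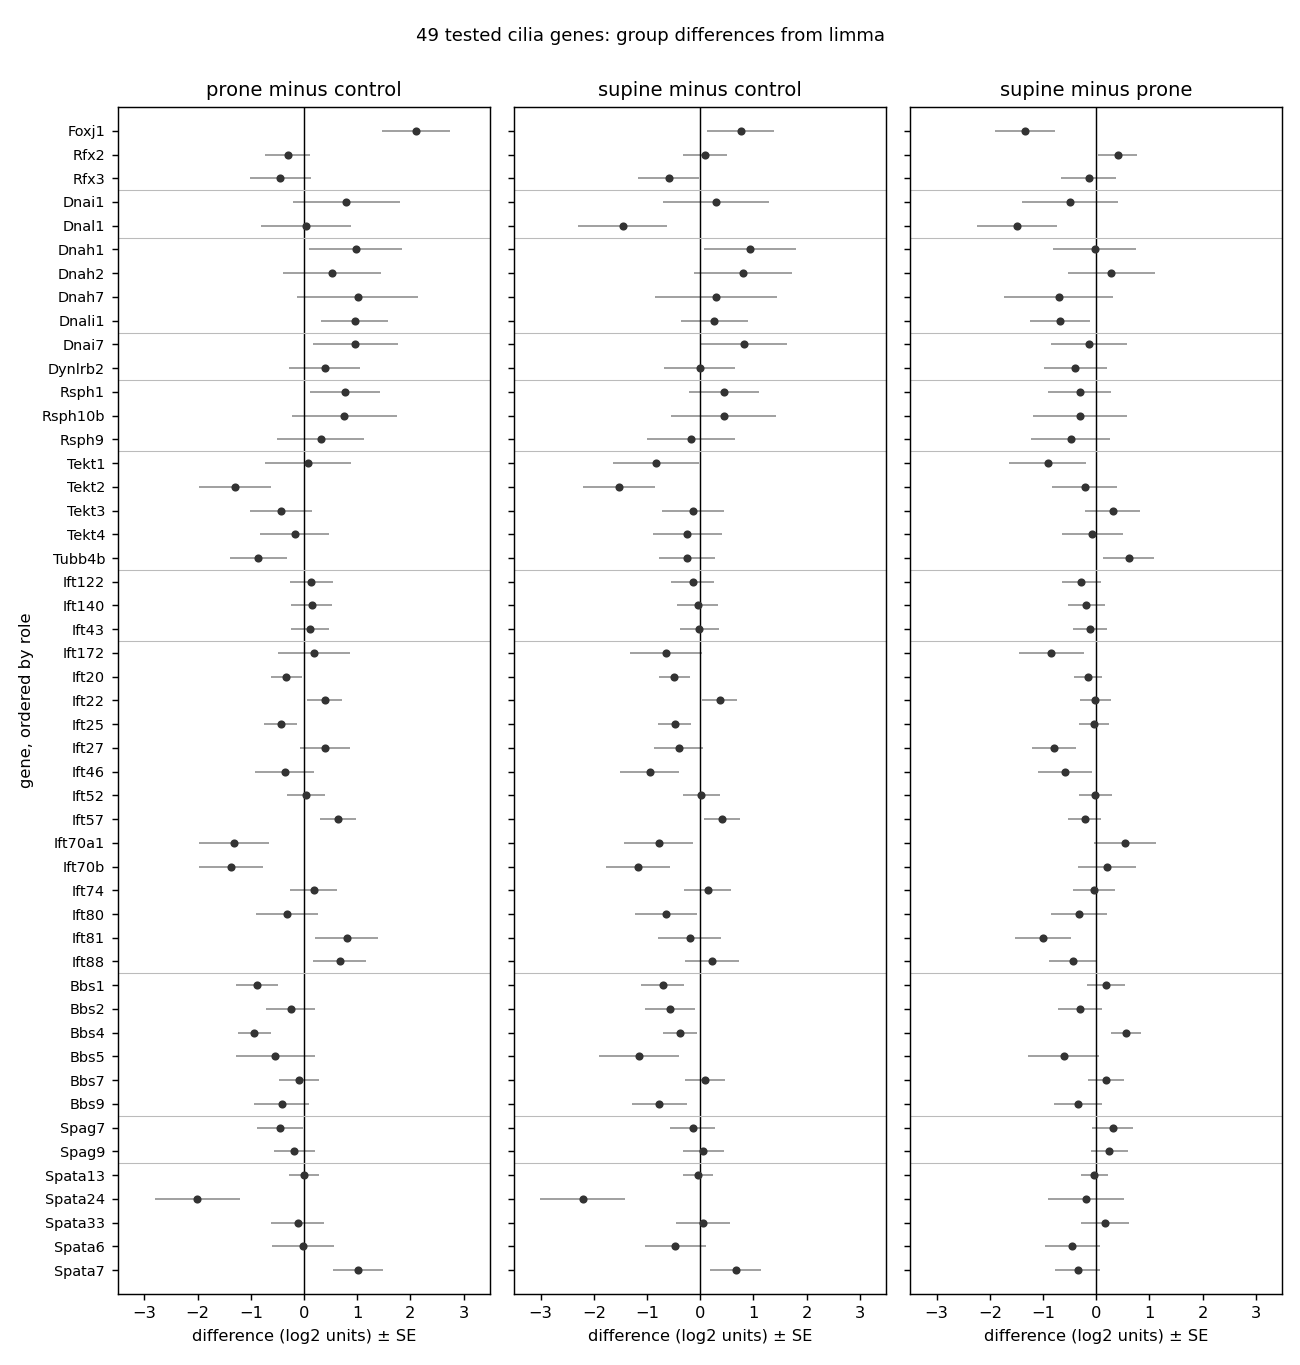
Group differences of the 49 tested members (points, log2 units) with the standard error of the limma model (bars), for prone minus control, supine minus control and supine minus prone. Most bars cross or come near 0, Foxj1 stands at 2.11 in the first panel, and Spata24, whose ventilated values reach the low end of the scale, at -2.01 and -2.20 in the first and second.

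The pattern shared by the members lay between replicates. Prone replicate 2 held the highest of the 8 values for 32 of 49 members, among them 13 of 15 axonemal, 12 of 17 IFT and 3 of 6 BBSome genes, against 9.46% of all tested genes. Within the prone group it was highest for 42 of 49 (85.7%) and for all 15 axonemal genes, against 23.4% of all genes. Tubb4b, left out of the axonemal set after values were seen, was instead highest on prone replicate 1. Prone replicate 1 was the lowest prone array for 37 members (75.5%, against 35.2% of all genes), and within the supine group replicate 2 was highest for 32 (65.3%, against 31.2%). The array was singled out after the values were seen, and these counts carry no test.

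The median axonemal gene stood at -0.83, 2.05 and 0.05 log2 units from the control mean on prone replicates 1 to 3, and at -0.20, 0.71 and -0.40 on the supine ones. IFT genes stood at -0.37, 0.70 and 0.02, then -0.34, 0.03 and -0.46, a smaller swing with the same array on top. BBSome genes stood at -1.07, -0.04 and -0.23, then -0.98, -0.05 and -0.88, so replicate 2 of each position was at control and no array above it. Medians of all genes stayed between -0.19 and 0.05 on these arrays. The range between prone replicates had a median of 2.31 for axonemal genes, 1.24 for IFT and 1.15 for BBSome genes, against 0.84 for all genes. Between supine replicates it was 1.33 for axonemal genes, above the 1.01 of all genes, and 0.71 for IFT and 0.96 for BBSome genes, below it. Between the 2 controls it was 0.24, 0.14 and 0.08 for the 3 sets, against 0.16.

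The prone median of the axonemal genes was 0.53 with 12 of 15 higher, and -0.28 with 5 of 15 higher without prone replicate 2. For IFT genes it was 0.14 with that array and -0.23 without it, while for BBSome genes it was -0.48 and -0.75. The sign thus changed for the axonemal and IFT genes and stayed for the BBSome genes. Foxj1 kept its direction, at 1.74 above control without that array, and on prone replicate 1, where 12 of 15 axonemal genes had their lowest prone value, it stood 0.91 above control. In supine lungs the axonemal median was 0.27, or -0.13 without replicate 2 and 0.20 without replicate 3.

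Markers of some other cell types were also high on prone replicate 2, and some of these on supine replicate 2. Of 9 secretory airway genes on the array, 7 were highest on prone replicate 2, Scgb1a1 among them by little. The rest were Cldn10, at 10.34 on prone replicate 1 against 9.43 on prone replicate 2, and Spdef. Spdef measured 7.23, 7.24 and 7.18 in prone lungs and was highest on supine replicate 3, at 7.78. Scgb3a1, a secretoglobin of larger airways, measured 9.15 and 8.52 in control, 7.93, 14.29 and 9.61 in prone, and 9.75, 12.64 and 9.12 in supine lungs, so replicate 2 was high in both positions. Bpifa1, an antimicrobial airway protein, was 13.71 on prone replicate 2, 5.55 on supine replicate 2 and 2.96 to 3.91 elsewhere. Muc5b, an airway mucin, was 11.44 and 9.08 on those arrays and 4.51 to 7.21 elsewhere. Scgb1a1, the club cell marker, lay between 15.35 and 15.72 on every array. The summed level of the list (log2 of the summed linear values) was 16.06 and 16.08 in control, 15.55 to 16.89 in prone and 15.65 to 16.25 in supine lungs. Such a sum follows the probe sets of highest signal, and Scgb1a1 was its largest part on every array.

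All 5 cardiac muscle genes on the array were highest on prone replicate 2. Their summed level was 5.58 and 5.53 in control, 7.18, 11.53 and 5.69 in prone, and 6.95, 5.95 and 10.27 in supine lungs. Supine replicate 2 was thus the lowest supine array for this list, unlike for most cilia genes. Myh6, a myosin of heart atria, was 9.87 on prone replicate 2 and 8.87 on supine replicate 3, against 2.69 to 2.79 elsewhere. The ciliated marker list summed to 13.37 and 13.40 in control, 11.99 to 13.58 in prone and 10.46 to 13.03 in supine lungs. Most of that sum was the signal of Tppp3. The mean of the list was 8.11 and 7.72 in control, 7.41, 9.63 and 8.31 in prone, and 7.62, 8.36 and 7.19 in supine lungs. Of its 5 genes, 4 were highest on prone replicate 2, of which 3 are members and Ccdc40 did not pass the filter. The fifth, Tppp3, a tubulin-binding protein, measured 13.23 and 13.29 in control, 11.63, 13.01 and 11.89 in prone, and 11.84, 12.75 and 9.69 in supine lungs. It lay below both controls on every ventilated array (-1.08 ± 0.85 and -1.83 ± 0.85), with replicate 2 the highest array of each position. Of 2 basal cell markers, Krt14 was 3.82 on prone replicate 2 and 2.15 to 2.41 elsewhere. Krt15 measured 7.05 and 7.57 in control, 4.49, 7.92 and 4.51 in prone, and 7.73, 8.34 and 5.53 in supine lungs. Replicate 2 was its highest array in each position. In prone lungs that array lay near the control level and the others far below it. The part of these cell types in the cilia values was not tested.

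**Figure D4:**
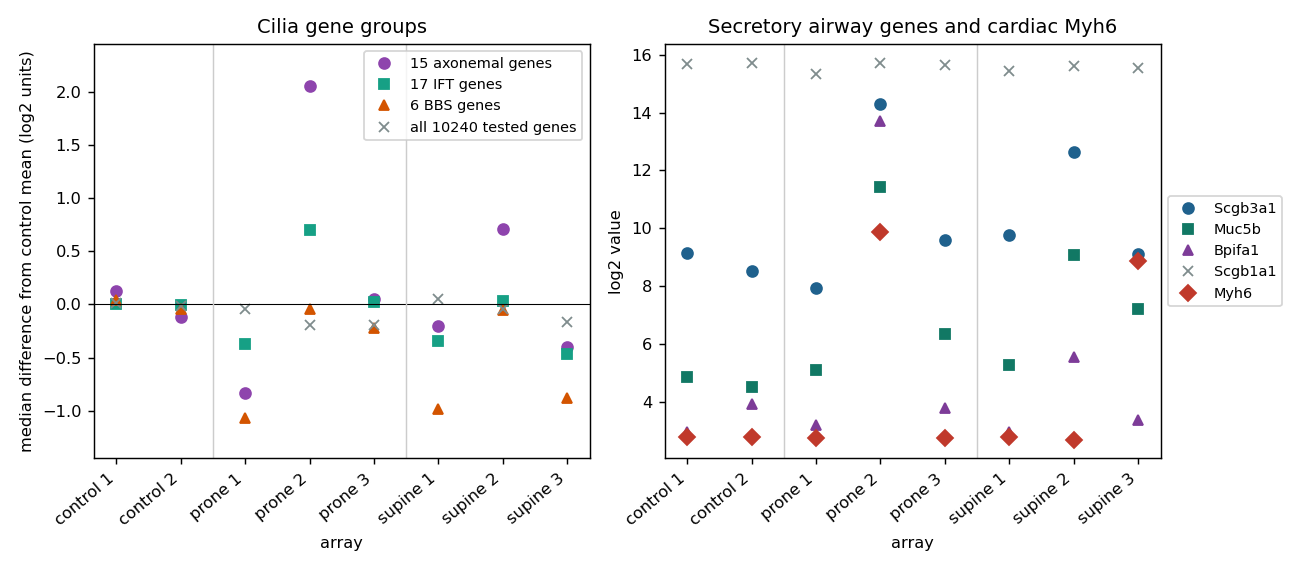
Left, the median difference from the control mean on each array for 15 axonemal, 17 IFT and 6 BBSome genes and for all 10240 tested genes, in log2 units. Right, log2 values of 4 secretory airway genes and of cardiac Myh6 on the same arrays. Prone replicate 2 carries the highest axonemal median (2.05) together with the highest Scgb3a1, Muc5b, Bpifa1 and Myh6 values, while Scgb1a1 is level.

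Markers of further cell types varied between groups and between replicates. Neutrophil markers summed to 13.23 and 13.51 in control, 14.91 to 16.71 in prone and 14.85 to 16.56 in supine lungs, with 7 of 7 genes above control in both. Mesothelial markers summed to 14.22 and 14.29 in control, 12.99 to 13.23 in prone and 12.57 to 13.44 in supine lungs, and lymphocyte markers to 10.92 and 12.24, 7.69 to 10.38 and 9.14 to 10.65. In these sums prone replicate 2 was the highest prone array for both lists, for the mesothelial one at 13.23 against 13.15 on replicate 1. The mean of the mesothelial markers was instead highest on prone replicate 1, at 8.36 against 7.78 on replicate 2. Alveolar type 1 markers summed to 16.39 and 16.46 in control, 15.62 to 15.98 in prone and 15.56 to 16.09 in supine lungs, and type 2 markers to 17.17 and 17.29, 16.58 to 17.07 and 16.82 to 17.17. The value of 16.58 was that of prone replicate 2, on which 6 of the 8 type 2 genes were lowest, opposite to the cilia genes. Of 8 listed germ cell genes of the testis, 0 had a single-symbol probe set analysed here. The part of these shifts in the members' differences was not tested.

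Other genes of the pathway gave 0 calls in any comparison by limma. Of 25 tested axoneme and assembly partners, 1 was higher and 1 lower in prone lungs at an unadjusted p under 0.05, and 1 and 1 in supine lungs. Over all genes the shares were 6.36% higher and 10.7% lower in prone and 6.48% and 7.86% in supine lungs, so each count is a smaller share than that. Without overlap, 5 stood higher and 2 lower in prone, and 9 higher and 4 lower in supine lungs. The shares of all genes were 18.6% and 29.0% in prone and 19.4% and 22.9% in supine lungs. Here the higher counts are larger shares, in prone lungs by little, and the lower counts smaller ones. These counts carry no test. Medians were 0.32 (19 of 25 higher) and 0.20 (16 of 25), against -0.15 and -0.07 for all genes. Spef1, a microtubule-binding protein of the central apparatus, measured 6.09 and 6.40 in control, 7.07, 8.21 and 7.65 in prone, and 7.03, 7.65 and 7.22 in supine lungs. All 6 ventilated arrays exceeded both controls, by 1.40 ± 0.40 (adjusted p = 0.155) and 1.05 ± 0.40 (adjusted p = 0.299). As with the members, 25 of the 30 partners on the array were highest on prone replicate 2.

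Of 20 tested IFT motors and adaptors, 0 were higher and 2 lower at an unadjusted p under 0.05 in each position, near the 10.7% and 7.86% lower over all genes. Medians were -0.19 and -0.39, against -0.15 and -0.07 for all genes, and 15 of 20 stood lower in both. Without overlap, 1 stood higher and 5 lower in prone, and 0 higher and 6 lower in supine lungs. The shares of all genes were 18.6% and 29.0% in prone and 19.4% and 22.9% in supine lungs, and only the 6 is a larger share. Arl3, a GTPase that releases lipidated cargo in cilia, measured 10.58 and 10.48 in control, 9.86, 9.62 and 9.71 in prone, and 9.44, 9.29 and 8.26 in supine lungs. No group overlapped another, and supine minus control was -1.53 ± 0.39 (adjusted p = 0.213). The lowest value, 8.26, was that of supine replicate 3, the array with the wide 3′ to 5′ gap. That array was the lowest for 9 of the 21 motors and adaptors on the array, against 20.4% of all tested genes. Bbip1, the smallest BBSome subunit, stood at -1.38 ± 0.42 in prone (adjusted p = 0.172) and -1.10 ± 0.42 in supine lungs, without overlap. Of 29 tested transition zone and basal body genes, 0 were higher and 2 lower in each position, a smaller share than over all genes, and the medians of -0.15 and -0.24 compare with -0.15 and -0.07 for all genes. Without overlap, 5 stood higher and 7 lower in prone, and 2 higher and 4 lower in supine lungs, each a smaller share than over all genes. Supine replicate 3 was the lowest array for 8 of the 30 genes of this list on the array. The centriolar genes with the smallest p were Ofd1 in prone (-0.97 ± 0.34) and Cetn3 in supine lungs (-0.96 ± 0.35).

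Of 17 tested genes of the multiciliated cell programme, which multiplies centrioles before cilia form, 0 were higher or lower in prone and 1 was higher in supine lungs at an unadjusted p under 0.05, where 6.36% and 10.7% of all genes were higher and lower in prone and 6.48% higher in supine lungs. The medians were 0.18 and 0.26, against -0.15 and -0.07 for all genes. Without overlap, 2 stood higher and 1 lower in prone, and 6 higher and 2 lower in supine lungs. The shares of all genes were 18.6% and 29.0% in prone and 19.4% and 22.9% in supine lungs, and only the 6 is a larger share. Cep152, a centriole duplication protein, stood at 1.25 ± 0.58 in prone, and E2f5, a transcription factor of the programme, at 1.50 ± 0.57 in supine lungs. Both had all ventilated arrays above both controls. In supine minus prone the smallest p in the 4 lists belonged to Mlf1, Arl3, Tctn1 and Tfdp1, with an adjusted p of 0.942 for each.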

How the data were processed

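Each sample was labelled with biotin and hybridised to a 1-colour Affymetrix rat array. The deposited values are log2 summaries that the authors made with GCRMA (background correction, quantile normalization, probe summary), with Partek 6.5 also used, per the submitters' processing notes; no filter or test of the authors is stated in those notes. Titles of supine samples read SVt where their condition label says high tidal volume, and the condition was followed.

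Of 20242 probe sets, 28 Affymetrix controls were set aside, and a probe set was tested if 2 or more arrays reached log2 5, which left 16896, of these 13155 had 1 symbol, 319 several and 3422 none in GEO's platform annotation; 3318 were not tested. All 53 member symbols matched RefSeq (GRCr8). limma 3.58.1 in R 4.3.3 (lmFit, eBayes) fitted 1 mean per group to all 8 arrays, leaving 5 residual and 2.51 prior degrees of freedom. Tests were two-sided, with Benjamini-Hochberg adjustment over all tested probe sets in each comparison and a threshold of 0.05. p-values measure the spread between these samples. Shares of all genes are over 10240 genes, each by its tested probe set of highest mean. The script was tested on simulated data.

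Replicate numbers are shared between groups. The deviations of same-numbered arrays from their group means correlated at 0.11 to 0.72 in all 7 pairs (other pairs -0.59 to 0.40). Every same-numbered pair thus passed a rule of 0.1, and the numbers may pair the samples. The 7 pairs are not independent, because deviations cancel within a group and those of the 2 controls are mirror images. The fits given in the text do not use the number, and a fit with the number as a block was an alternative. The labels do not say what the number stands for.

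The text names members whose groups do not overlap (the 6 largest in each direction per comparison), the member of highest mean in each role, Foxj1, Rfx2, Rfx3, Dynlrb2 and Tubb4b, and the gene of smallest p in each pathway list. Members, lists and rules were chosen with earlier results of these data known. Others, such as Dnah7, Dnai1, Tekt5 and the marker genes, and the roles of Dnai7, Ift70a1 and Ift70b, were chosen after values were seen. Alternatives were other filters, centring, quantile normalization, the block, fits to the compared groups, an intensity trend, averaged probe sets and leaving out arrays.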

Additional observations from a re-analysis of the deposited data

How the results depend on the processing

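No member passed in prone minus control, supine minus control or supine minus prone under any alternative run, the replicate block included. In all ventilated arrays minus control, 1 member passed with no filter on low values: Tekt5. It lies below the filter on every array, where values cannot be separated from background, so no size is given. With the replicate block the calls over all probe sets went from 9, 9, 0 and 24 to 0 in each of the 4 comparisons, and the members' medians were 0.15, 0.01, -0.19 and 0.06. It changed no call of a member.

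Leaving out 1 array at a time gave median differences of -0.31 to 0.27 in prone minus control, lowest without prone replicate 2 and highest without prone replicate 1, -0.30 to -0.03 in supine minus control, -0.62 to 0.20 in supine minus prone and -0.19 to 0.03 for all ventilated arrays. The value of -0.62 was that without prone replicate 1. Without prone replicate 2 and supine replicate 3, a choice made after seeing the data, the supine minus prone median was 0.24, and without replicate 2 of both positions, also added then, it was 0.03. Centring the arrays gave medians of 0.18, -0.07, -0.26 and 0.07. Single named members changed sign in 20 of 375, 35 of 358, 22 of 251 and 26 of 321 alternative values, none of them called, and 0 crossed the threshold; the smallest adjusted p was 0.0639 (Foxj1, prone minus control, without prone replicate 1). The cause was not tested. With 2 and 3 arrays a group, and no detection calls used here, low values such as those of Spata24 and Tekt5 cannot be ranked against background.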
